A study of Bos taurus with 40 samples.

Results

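Normal growth was followed here in the jejunal epithelium of Holstein Friesian bulls that were never feed restricted. The comparison took the 10 ADLIB Period 2 libraries against the 10 ADLIB Period 1 libraries, chosen by their labels, 20 of the 40 libraries of the series. ADLIB Period 1 animals were offered feed ad libitum and were slaughtered on day 125 of Period 1. ADLIB Period 2 animals were fed in the same way and were slaughtered on day 55 of Period 2, at the end of the 180 day trial. All animals received 1 diet of 70% concentrate and 30% grass silage, and since tissue was taken at slaughter no animal was measured at both times. Within a period the libraries are labelled as separate bulls, although the treatment text in the labels counts 1 control bull fewer than there are ADLIB libraries. The other 20 libraries came from RES animals, which were restricted in Period 1 and fed ad libitum in Period 2, and they enter only where named. Age, day of slaughter and period coincide in this design and cannot be told apart.

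The jejunum is the middle stretch of the small intestine and a main site where digested peptides, sugars and fats are taken up. Its lining is renewed without pause, as stem cells in the crypts divide and their daughters move up the villi, mature into absorptive and secretory cells and are shed. The tissue was scraped from the wall with a glass slide. A scraping holds epithelium of crypts and villi together with immune cells, and in such bulk RNA fewer cells of a type and less RNA per cell cannot be told apart.

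Expression was available as 1 normalised value per gene and library, in CPM, the reads of a gene relative to its library total times a scaling factor of that library. The values of a library therefore do not sum to a common total. Over the ADLIB libraries the factor ran from 0.722 to 1.142. It was lowest in ADLIB Period 2 replicate 10, which raises the CPM values of that library relative to its shares of reads. The scaling was made by the authors within each period, so levels of Period 1 and Period 2 set side by side come from separate scalings. A total of 13509 genes were listed in both periods and were compared. A further 176 genes were listed in Period 1 alone and 96 in Period 2 alone, and these were left out, since the files give no value for them at the other time. The files name genes by Ensembl identifier, and 0 of the 13509 identifiers could be paired with a gene symbol in the table used here. Genes are therefore described by level, by change and by their spread between animals, and only 4 are given by identifier. For the same reason the labelled tissue was not checked against marker genes, and no gene position is given. The listed genes held 4431390 reads in the shallowest ADLIB library and 8295900 in the deepest.

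Some libraries stood apart from the others of their group. In ADLIB Period 2 replicate 10 the 10 most abundant genes of the library held 30.8% of the expression signal, against 12.2 to 20.0% in the other Period 2 animals. ADLIB Period 1 replicates 5 and 7 lay furthest from their group, with a median absolute difference over genes of at least 10 CPM of 0.448 and 0.408 on the log2 scale from the median of their 9 fellows. ADLIB Period 2 replicates 9 and 10 followed, at 0.331 and 0.321. Limma's array weights, which give less weight to libraries whose genes scatter more around their group mean, were under 0.5 for 5 libraries. These were Period 1 replicates 4, 5 and 7 and Period 2 replicates 9 and 10. The counts of called genes by limma and by the likelihood ratio test, and the count of genes bounded within 2 fold, are also given without these 5 libraries. They were chosen for their scatter in these same data, so their removal favours a narrower spread within groups and higher counts.

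The first question was which genes changed as ADLIB animals grew from the end of Period 1 to the end of Period 2. With limma on log2(CPM + 1), 0 of 13509 genes passed the threshold of the study (Benjamini-Hochberg adjusted p below 0.001), and the smallest adjusted p was 0.85. The count was also 0 under 0.1, a called share of 0%. An unadjusted p under 0.05 was reached by 692 genes, or 5.12% of those tested, with 376 (2.78%) higher and 316 (2.34%) lower in Period 2. The share of 5.12% is close to what a threshold of 0.05 gives when no gene changes. The groups of 10 animals overlapped for all 13509 genes, so the share without overlap was 0%. The balance of higher and lower genes with an unadjusted p under 0.05 leaned on the scaling. After a single TMM scaling of all 20 libraries on the recovered reads, 684 of 13509 genes were under 0.05, 256 higher and 428 lower. Those genes were selected anew under that scaling. The median change over all genes was 0.0242 as deposited and 0.00097 after that scaling. Without the 5 libraries of low weight, limma again called 0 genes, at 0.001 and at 0.1 alike. The unadjusted count went up to 1430 of 13509 genes.

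**Figure D1:**
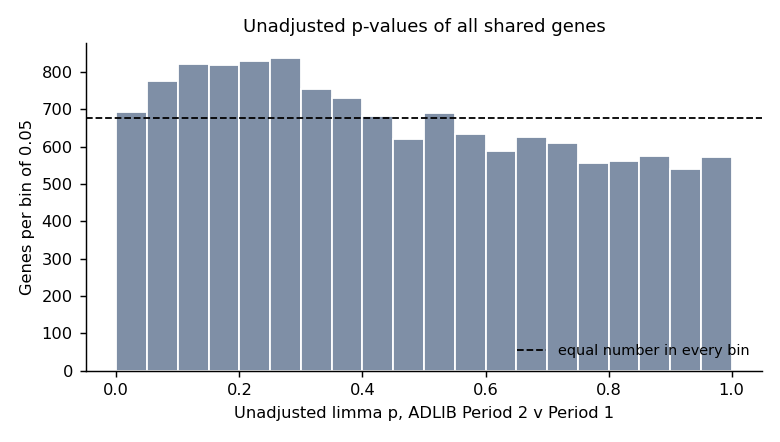
Number of shared genes (vertical axis) in each bin of 0.05 of the unadjusted limma p for ADLIB Period 2 against Period 1 (horizontal axis), with 13509 genes in all. The dashed line marks an equal number in every bin. The lowest bin holds 692 genes, 5.12% of the total. The bins are not equal: those between 0.1 and 0.3 hold 817 to 836 genes each, and those between 0.75 and 1 hold 541 to 575.

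Count based tests on the recovered reads gave few calls. The edgeR likelihood ratio test, which was the test of the study, called 0 genes under 0.1 here. An unadjusted p under 0.05 was reached by 764 genes (5.66%). The study itself reported ANPEP as the only differentially expressed gene of this comparison, lower in Period 2. That gene could not be looked up here, since no identifier was paired with a symbol. The smallest adjusted p of the likelihood ratio test over all genes compared was 0.156. If ANPEP was among the genes listed in both periods, the call of the study was therefore not reproduced here. Whether it was among them could not be checked. DESeq2 called 0 genes under 0.001 and 14 under 0.1, or 0.15% of the 9318 genes to which it gave an adjusted p, with 5 higher and 9 lower in Period 2. Most of the nominal calls of the likelihood ratio test were lower in Period 2, 579 against 185 higher. Limma as deposited had 376 higher and 316 lower, but after a single TMM scaling it too had more lower genes, as given above, and voom on recovered reads had 279 higher and 453 lower. The likelihood ratio test was sensitive to the animals included. With each animal left out in turn it called 0 genes under 0.1 in 15 of 20 fits. It called 41 without Period 2 replicate 9, 7 without Period 2 replicate 10, 6 without Period 1 replicate 1, 4 without Period 1 replicate 7 and 2 without Period 1 replicate 2. Without the 5 libraries of low weight, a removal that favours calls, it called 45 genes, 9 higher and 36 lower.

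The 41 genes called without Period 2 replicate 9 were 37 that were lower and 4 that were higher in the remaining Period 2 animals, 0 of them under 0.001. In 30 of the 37 lower genes, replicate 9 lay above all 9 other Period 2 animals, and in 31 it was at or above the median of the Period 1 animals. Over all 13509 genes replicate 9 lay above the other 9 in 20.5%. The 37 were called for low values in those 9 animals, so that an animal left out of the fit lies above them is favoured by the choice. In 13 of the 37 it was also above every Period 1 animal. Over all genes the replicate was at or above the Period 1 median in 51.5% and above every Period 1 animal in 12.1%.

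Since 0 genes were called, the genes with the smallest limma p are given as a description, the first 2 higher and the first 2 lower in Period 2, and none of them passed the test. ENSBTAG00000047441 ranked first. Its values ran from 67.8 to 106 CPM in Period 1, with a median of 91.9, and from 102 to 199 CPM in Period 2, with a median of 120. Of the 10 Period 2 animals 9 lay above the highest Period 1 animal, and the exception was replicate 10 at 102 CPM. The log2 difference was 0.54 (standard error 0.12, 95% interval 0.30 to 0.78, adjusted p = 0.85, limma). In RES animals the same gene had medians of 94.2 and 111 CPM in Periods 1 and 2.

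ENSBTAG00000012678 had values from 37.9 to 58.6 CPM in Period 1, with a median of 49.5, and from 51.7 to 77.0 CPM in Period 2, with a median of 67.6. All 10 Period 2 animals were above the Period 1 median and 8 were above its highest animal. Its log2 difference was 0.39 (standard error 0.089, 95% interval 0.21 to 0.58, adjusted p = 0.85, limma). In RES animals its medians were 51.2 and 61.0 CPM.

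ENSBTAG00000021635 was the lower gene with the smallest p. It ran from 16.0 to 24.9 CPM in Period 1, with a median of 19.5, and from 10.6 to 18.2 CPM in Period 2, with a median of 14.1. All 10 Period 2 animals lay below the Period 1 median, and 8 lay below the lowest Period 1 animal. The log2 difference was -0.47 (standard error 0.11, 95% interval -0.71 to -0.24, adjusted p = 0.85, limma). In RES animals the medians were 19.1 and 17.6 CPM.

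ENSBTAG00000030182 was expressed at a low level, with 6 to 57 reads per library. It ran from 2.12 to 10.0 CPM in Period 1, with a median of 3.73, and from 0.75 to 4.87 CPM in Period 2, with a median of 1.55. Period 2 replicate 9 held the value of 4.87 CPM, and the other 9 Period 2 animals were at or under 2.17 CPM, with 8 of them below the lowest Period 1 animal. The log2(CPM + 1) difference was -0.95 (standard error 0.23, 95% interval -1.42 to -0.47, adjusted p = 0.85, limma), a scale that understates changes at this level. In RES animals its medians were 2.40 CPM in Period 1 and 3.21 CPM in Period 2.

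**Figure D2:**
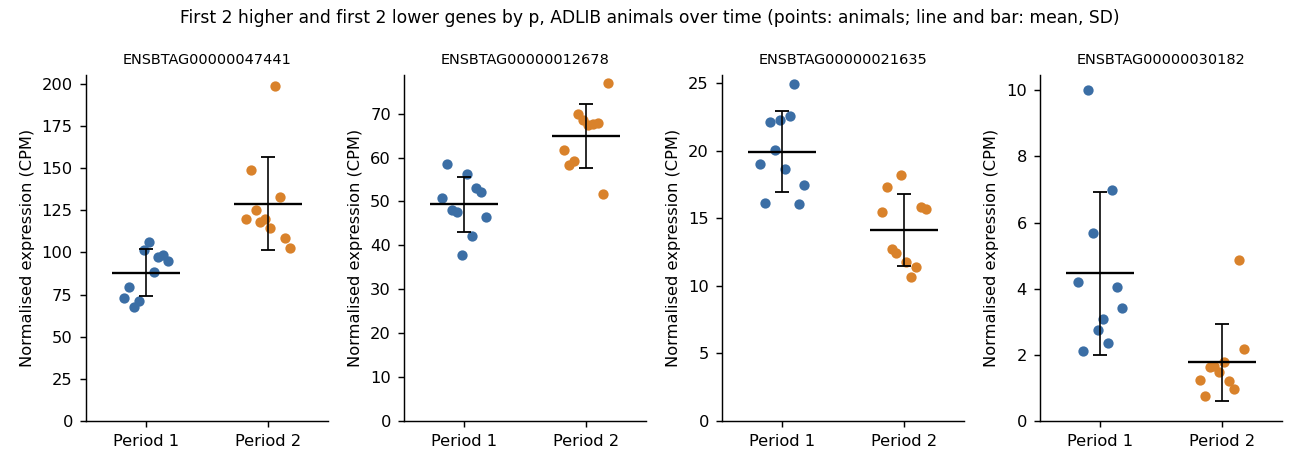
Normalised expression in CPM (vertical axes, from 0) of the first 2 higher and first 2 lower genes by p, in ADLIB Period 1 and ADLIB Period 2 (horizontal axes). Points are animals, 10 a group, and the line and bar give mean and SD. The groups overlap in each panel, and in the panel of ENSBTAG00000030182 the Period 2 animals at 2.17 and 4.87 CPM lie within the range of Period 1.

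Whether these genes moved differently in RES animals was tested with the 40 libraries of both feeding groups, as the change over time in RES minus that in ADLIB animals. Limma called 0 of 13509 genes at 0.001 (called share 0%) or at 0.1, with a smallest adjusted p of 0.38. Unadjusted p-values below 0.05 were found for 877 genes (6.49%), and the likelihood ratio test called 1 gene at 0.001. For ENSBTAG00000047441 the change in RES animals minus that in ADLIB animals was -0.23 on the log2 scale (95% interval -0.58 to 0.11, adjusted p = 0.74). For ENSBTAG00000012678 it was -0.16 (95% interval -0.55 to 0.23, adjusted p = 0.85). For ENSBTAG00000021635 it was 0.35 (95% interval -0.095 to 0.79, adjusted p = 0.72), and for ENSBTAG00000030182 it was 1.25 (95% interval 0.36 to 2.13, adjusted p = 0.72). These 4 were chosen on the ADLIB libraries, so the interaction is not independent of that choice. Over the 13509 genes the changes of ADLIB and RES animals had a Pearson correlation of -0.28 and a Spearman correlation of -0.21. The feeding groups share no animals, but their libraries were scaled together within each period and genes are not independent replicates.

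A p-value that misses a threshold does not show stability, so the interval of the difference was used to say which genes stayed at a like level. A gene was counted as bounded where the whole 95% interval of its log2 difference lay between -1 and 1, that is within 2 fold, among the 9574 genes with a mean of at least 10 CPM. By this rule 8839 genes, or 92.3%, were bounded. A bound of 1.5 fold held for 6774 genes, or 70.8%, and a bound of 1.2 fold for 1019 of the 9574 genes. The bounded genes had a median absolute difference of 0.11 on the log2 scale, and 429 of them had an unadjusted p under 0.05. Without the 5 libraries of low weight, 9039 of 9596 genes were bounded, the mean of at least 10 CPM being taken over the libraries kept.

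The precision varied with the level of expression. From 10 to 100 CPM, 7401 of 7940 genes (93.2%) were bounded within 2 fold, with a median half-width of the interval of 0.31. Between 100 and 1000 CPM, 1386 of 1547 genes (89.6%) were bounded, with a half-width of 0.32. At 1000 CPM or more, only 52 of 87 genes (59.8%) were bounded, with a half-width of 0.48. The median SD between Period 1 animals was 0.50 in this highest class, against 0.37 from 10 to 100 CPM. More reads per gene did not come with narrower intervals across these classes. The 3935 genes under 10 CPM were not counted, since the pseudocount narrows their intervals.

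**Figure D3:**
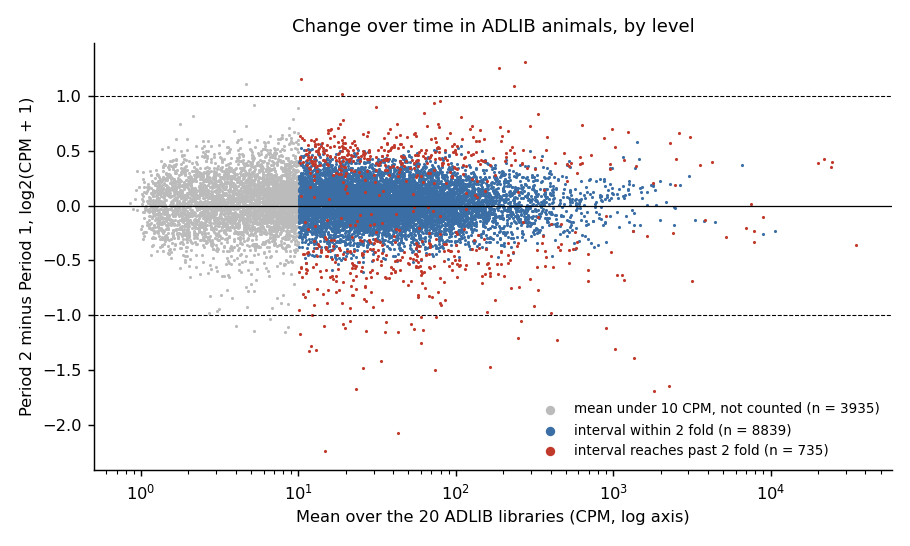
Difference between ADLIB Period 2 and ADLIB Period 1 in log2(CPM + 1) (vertical axis) against the mean over the 20 libraries (CPM, log axis) for all 13509 genes. Blue genes (8839) have a 95% interval within 2 fold, red genes (735) do not, grey genes (3935) were under 10 CPM, and dashed lines mark 2 fold.

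The 735 genes that were not bounded had both a larger spread and a larger difference between periods, which the rule itself favours. Their median SD within groups was 0.90 on the log2 scale, against 0.32 for bounded genes, and their median absolute difference was 0.46, against 0.11. Of these genes 653 had an interval that contained 0. An unadjusted p under 0.05 was reached by 82 of them. The interval lay wholly past 2 fold for 0 genes, so no gene of at least 10 CPM was shown to differ by more than that. In 421 of the 735 the difference itself was under 0.5, and in 38 it was 1 or more in size. For each gene the animal furthest from its group mean was noted. Period 1 replicate 4 was that animal in 164 (22.3%) of the genes not bounded, against 8.47% of bounded genes. Period 2 replicate 10 was that animal in 132 of the 735, against 852 of the 8839 bounded genes. Period 1 replicate 5 was furthest more often among bounded genes, in 23.5% of them against 12.7% of the others.

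The order of the genes by level was much the same at both times. Mean levels of the groups had a Spearman correlation of 0.99 over the 13509 genes. The 10 most abundant genes of the 2 periods shared 9, the 100 most abundant shared 87 and the 1000 most abundant shared 921.

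The 10 most abundant genes themselves varied widely between animals. None had an unadjusted p under 0.05, and 2 of the 10 were bounded. The most abundant gene ran from 15637 to 67200 CPM in Period 1, with a median of 32009, and from 11254 to 145213 CPM in Period 2, with a median of 22812. Period 2 replicate 10 held the value of 145213 CPM and the next Period 2 animal was at 33365 CPM. That animal was the highest of Period 2 in 6 of the 10 genes and the lowest in 3. The log2 difference of the gene between periods was -0.36 (95% interval -1.30 to 0.57).

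The second gene by level was steadier between animals. It ran from 15430 to 29725 CPM in Period 1, with a median of 19190, and from 13020 to 38810 CPM in Period 2, with a median of 29835, a log2 difference of 0.40 (95% interval -0.23 to 1.04). The groups overlapped widely, and the interval reached just past 2 fold.

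The genes of rank 3, 4 and 5 by level were highest in the same Period 1 animal and lowest in the same animals of both periods. The third ran from 1939 to 52385 CPM in Period 1 and from 2239 to 44190 CPM in Period 2. In each of the 3 genes Period 1 replicate 5 was the highest and Period 1 replicate 4 the lowest animal of Period 1, and Period 2 replicate 10 was the lowest of Period 2. The group medians of the third gene, 23517 and 27250 CPM, lay close by comparison, and its log2 difference was 0.35 (95% interval -0.86 to 1.57).

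**Figure D4:**
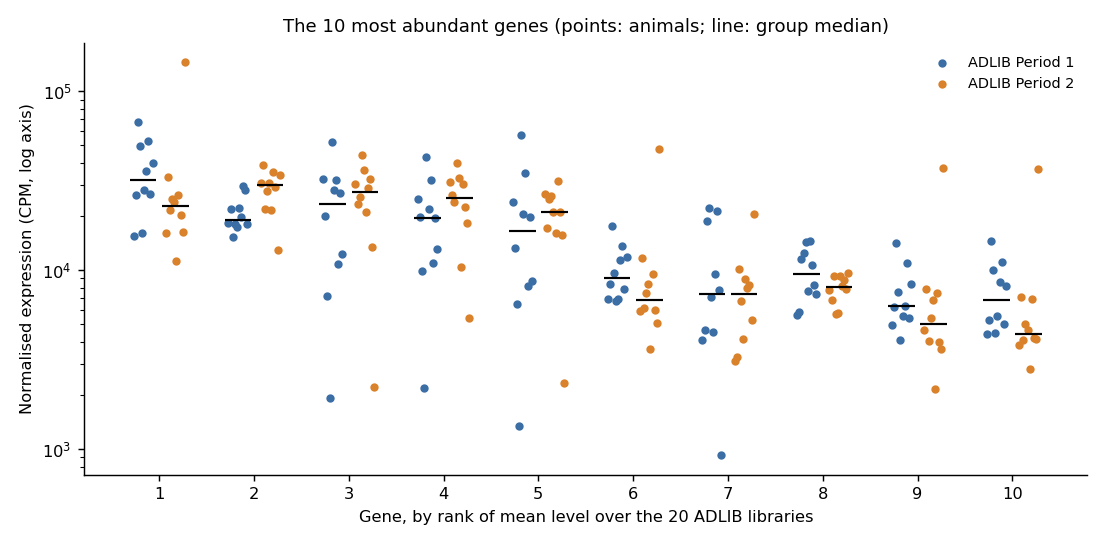
Normalised expression (CPM, log axis) of the 10 genes with the highest mean over the 20 ADLIB libraries, ordered by rank on the horizontal axis. Points are animals and short lines group medians. In Period 2 a single animal reaches 145213 CPM for the first gene and is lowest for the genes of rank 3, 4 and 5.

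The spread between animals was described in the same way. Among genes of at least 10 CPM the median SD on the log2(CPM + 1) scale was 0.37 in Period 1 and 0.27 in Period 2, and 76.7% of these genes had the larger SD in Period 1. Library distances from the group, as defined above, ran from 0.174 to 0.448 in Period 1 with a mean of 0.281 ± 0.086 (SD, n = 10). In Period 2 they ran from 0.128 to 0.331 with a mean of 0.204 ± 0.069 (SD, n = 10). The difference of 0.0767 had p = 0.04 in a two-sided permutation test over libraries, a test chosen after the values were seen. The shuffled values were distances already measured from each library's own group, and they were not remeasured. When the distance of a single animal was left out, with those of its fellows unchanged, the difference stayed between 0.0581 and 0.0908. Its p ran from 0.011 to 0.081, and it was not under 0.05 in 11 of 20 fits. These left out Period 1 replicate 4, 5, 7 or 8, or Period 2 replicate 1, 3, 4, 5, 6, 7 or 8. Period 1 was the more spread in all 20 fits. In RES animals the distances ran from 0.188 to 0.673 in Period 1, with a median of 0.219, and from 0.152 to 0.881 in Period 2, with a median of 0.231. The ADLIB medians were 0.246 and 0.185.

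**Figure D5:**
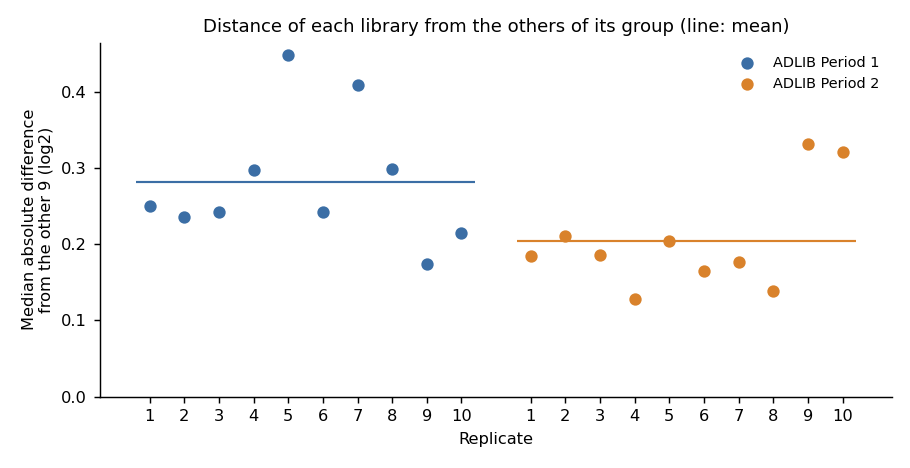
Distance of each ADLIB library from its group, as the median absolute log2 difference from the 9 fellow libraries over genes of at least 10 CPM (vertical axis, from 0), by replicate (horizontal axis). Lines are group means, 0.281 in Period 1 and 0.204 in Period 2, and the highest points are Period 1 replicates 5 and 7.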

How the data were processed

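RNA from scraped jejunal epithelium of 40 bulls was sequenced, and the 20 ADLIB libraries are analysed here. Per the study's methods, the authors used Trim Galore for trimming, TopHat for alignment to UMD3.1, HTSeq for counting over protein-coding genes of Ensembl, and edgeR for testing. The submitters' processing notes name CASAVA 1.4, Bowtie and SAMtools as well. The extract protocol in the labels mentions muscle, whereas the tissue labels were followed here. The deposited signal is CPM with a scaling factor per library. TMM factors recomputed from the recovered reads of the 20 libraries of each period equalled these factors to rounding, so the authors scaled the periods separately. Listed genes were above 1 CPM in at least 10 libraries of their period. Each value of the ADLIB libraries was a whole multiple, within 0.05 reads, of the value of 1 read in its library, for 100% of values, so reads were recovered. Implied scaling factors ran from 0.722 to 1.142.

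As the files hold normalised values, limma 3.58.1 (R 4.3.3) with an intensity trend was run on log2(CPM + 1), unpaired, over the 13509 shared genes, in place of the likelihood ratio test of the study. Alternatives on recovered reads used edgeR 4.0.16 and DESeq2 1.42.0. The permutation test used 100000 resamples (scipy 1.17.1). Tested on simulated reads for this comparison (13509 genes), limma called 60 of 100 genes changed 2 fold at 0.001. It called 93 of 100 changed 4 fold, and 0 unchanged genes. The changed genes were drawn from better covered genes and planted together, which eases the adjusted threshold. The simulated reads were given 1 TMM scaling over all 20 libraries, whereas the deposited values were scaled within each period. No simulated animal stood apart over many genes, so these shares do not carry over to all genes of the real comparison. The rule for named genes asked for symbols, or, without them, at most 2 identifiers that rose and 2 that fell. The smallest p was taken within each direction. The comparison and the rules were chosen with earlier results of these data known. Gene lists and cell type markers written by symbol could not be applied.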

Additional observations from a re-analysis of the deposited data

Results flagged for a closer look

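Dixon's ratio, the distance of the outermost sample to its neighbour as a share of the whole range, was computed within groups of 10 animals for the 4 genes named above and for 4 library measures. Of 16 groups, 3 were past the 95% critical value, where chance gives about 1 in 20. ENSBTAG00000030182 had a ratio of 0.509 in ADLIB Period 2 on the log2(CPM + 1) scale, because replicate 9 stood at 4.87 CPM and its neighbour at 2.17 CPM. That gene had been picked for its small p and is not a random draw. For the share of signal in the 10 most abundant genes of a library the Period 2 ratio was 0.582, since replicate 10 held 30.8% and its neighbour 20.0%. For the scaling factor it was 0.552, with replicate 10 at 0.722 and its neighbour at 0.948. The latter results come from the same library and are not separate.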

How the results depend on the processing

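The count of 0 genes by limma under 0.001 was the same under each limma setting run, which were other pseudocounts (0.5 and 0.25), both filters on low values, both other scalings, the digit of the library code as a covariate, array weights, no trend, robust estimation, all 40 libraries in the fit, the replicate block and leaving out each animal (0 to 0 genes). It was also 0 under 0.001 with the likelihood ratio, quasi-likelihood and voom tests and with DESeq2. DESeq2 under 0.1, added after seeing the data, called 14. The likelihood ratio test under 0.1 ran from 0 to 41 genes with each animal left out, called 45 without the 5 libraries of low weight and 5 with the replicate block. The labels give both periods the same replicate numbers, but different animals carry them. Deviations of same-numbered animals had a mean correlation of 0.0035 (lowest -0.43, highest 0.33), against 0.0043 for different numbers, and 1 of 10 Period 1 animals correlated best with its own number, so the number gave no pairing. With the block 565 genes had an unadjusted p under 0.05.

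That unadjusted count of 692 rose to 1269 with array weights and fell to 345 with all 40 libraries in the fit, and was 461 without Period 1 replicate 4, 1042 without Period 1 replicate 1 and 1089 without Period 2 replicate 10. Among the genes under 0.05 in each scaling, selected anew each time, the share higher in Period 2 was 54.3% as deposited. It was 37.4% with 1 TMM scaling and 36.9% without scaling. Genes bounded within 2 fold ran from 8626 (of 9566) to 9023 (of 9584) with each animal left out, as the genes counted changed with the libraries kept. Of 9574 genes, 8850 were bounded with the block and 7280 with intervals that match a p threshold of 0.001. The interaction was called for 0 genes in each limma setting run and for 1 gene by the likelihood ratio test. The difference in library distance ran from 0.0581 to 0.0908 with the distance of each animal left out in turn and the others unchanged. All 108 recomputed changes of the 4 genes given by identifier kept their direction, with adjusted p from 0.16 to 0.997. The genes were picked for a small p in these same libraries, which the refits reuse, so a kept direction was favoured by the choice. The causes were not tested. Without gene symbols, no list of genes could be examined.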
